A study of Mus musculus with 102 samples.

Results

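The regions described here are 13992 distal peaks of histone H3 lysine 4 monomethylation (H3K4me1) that carried dimethylation (H3K4me2) but no trimethylation (H3K4me3) in R1 mouse embryonic stem (ES) cells. They were chosen by the positions of called peaks, as H3K4me1 peaks that the authors placed in a distal group (its definition is not given in the labels). They shared at least 1 bp with an H3K4me2 peak and none with an H3K4me3 peak. They made up 24.4% of the 57381 distal H3K4me1 peaks and 17.1% of all 82053. The other distal peaks had neither H3K4me2 nor H3K4me3 (26177 peaks) or overlapped an H3K4me3 peak (17212 peaks). A peak call depends on enrichment, and in which line the peaks were called was not established. These classes may therefore not be independent of the levels compared below.

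H3K4 methylation is written one methyl group at a time. Monomethylation, with or without dimethylation, marks enhancers, and trimethylation marks active promoters. MLL3 and MLL4 are the main enzymes that place H3K4me1 at enhancers, and they also act as scaffolds for other proteins. A catalytically inactive form separates the methylation from the presence of the protein. H3K27ac, acetylation of lysine 27 of the same histone, accompanies active enhancers, and an enhancer with H3K4me1 and little H3K27ac is often called poised.

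The marks were measured by chromatin immunoprecipitation with sequencing (ChIP-seq). The 2 lines compared were R1 ES cells (strain 129SV), either wild-type or labelled MLL3/4 double catalytic dead (catalytic-dead in the plots, mutant cells here). Both lines grew on mouse embryonic fibroblast feeders in serum-free medium with leukemia inhibitory factor, and the labels do not say whether the mutant line is a single clone or how feeder cells were removed. Each mark has 2 libraries in each line by the labels, but the tables hold 1 fold enrichment per mark and line. The depth and the spread between libraries are therefore unknown, no difference between the lines or between classes of peaks could be tested, and every comparison below is a description. The binding of 17 chromatin proteins came from ES cells of strain 129/Ola, for which the labels give no genotype, grown on feeders and then passaged without them. Of these proteins, 14 were measured in 2 libraries, 2 in 3 libraries and SSRP1 in 1, again with 1 value each.

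The fold enrichments in the deposited tables were out of step with the positions and were put back in step before use. On chromosomes 1, X and Y, where no value had to be moved, Spearman's rho between the H3K4me1 and the H3K4me2 change of the same member was 0.88 (1040 members). On chromosomes 2 to 19 it was 0.88 after and 0.02 before the values were put back.

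Members were intermediate in width among distal H3K4me1 peaks. Their median width was 1726 bp (quartiles 1161 to 2571), against 1192 bp at distal peaks with neither mark and 2370 bp at those with H3K4me3. Together they covered 29.0 Mb. An H3K4me2 peak usually lay inside the member. It did so wholly at 64.1% of members, while 3.25% of members lay wholly inside their H3K4me2 peak. The H3K4me2 peaks had a median width of 1047 bp and covered a median of 56.9% of the member. A single H3K4me2 peak was found in 13262 members and 2 to 4 in the other 730. Where a member had several, the one with the longest overlap is used below as its partner. Of the partners 98.5% were also in the authors' distal group. Of the members 8.08% shared a partner with another member.

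Most members had a lower H3K4me1 fold enrichment in mutant cells. Their median H3K4me1 fold enrichment in wild-type cells was 3.20 (quartiles 2.85 to 3.58), and in mutant cells it was 2.00 (quartiles 1.33 to 2.83). The 2 ranges between the quartiles did not overlap. The log2 ratio of mutant to wild-type enrichment had a median of -0.74, from -2.33 at the 5th to 0.78 at the 95th percentile, and 79.5% of members were below 0. Over all H3K4me1 peaks the median log2 ratio was -0.21 and over distal peaks -0.65, so that members stood at -0.53 relative to the median of all peaks. Fold enrichment is a relative measure, and no common scale between the lines is given.

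With a change of at least 2-fold as the rule of size, 5369 members (38.4%) were decreased and 366 (2.62%) increased in H3K4me1. The background was 28.4% decreased and 15.2% increased among all H3K4me1 peaks, and 37.7% and 5.66% among distal peaks. The share of decreased members was thus that of distal peaks in general. Distal peaks with neither mark were decreased at 58.8%, with a median log2 ratio of -1.21, and distal peaks with H3K4me3 at 5.25%, with a median of 0.30. The member median lay between those of these classes on 19 of 19 autosomes. The order of the 3 classes in H3K4me1 followed mutant levels more than wild-type levels. The mutant medians were 1.32 with neither mark, 2.00 at members and 3.61 with H3K4me3, while the wild-type medians were 2.98, 3.20 and 3.02. The part of the peak calls in this order was not tested.

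**Figure D1:**
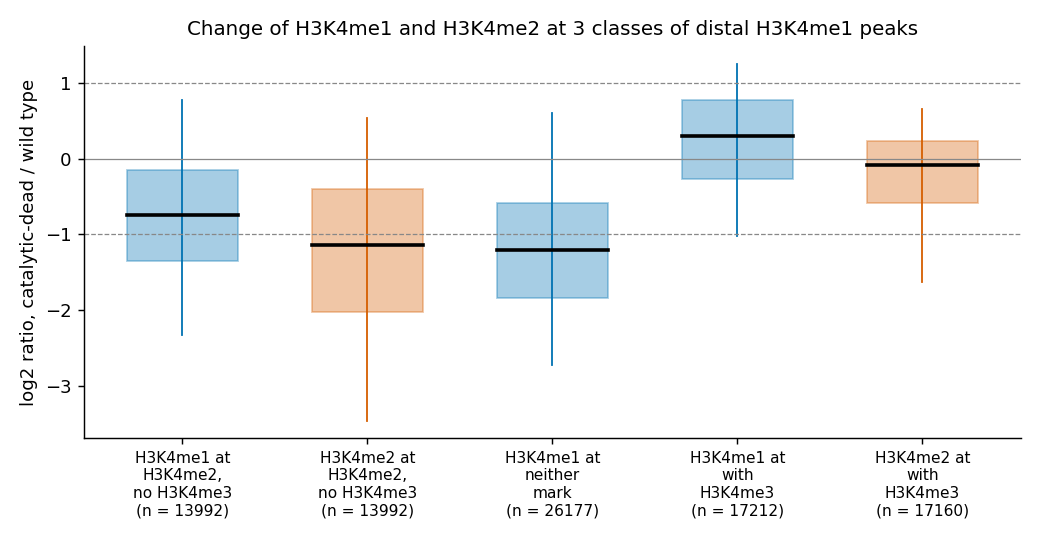
Log2 ratio between mutant and wild-type fold enrichment (y axis) for H3K4me1 (blue) and the H3K4me2 partner (orange) at 3 classes of distal H3K4me1 peaks. Boxes span the quartiles, black lines are medians, thin lines run from the 5th to the 95th percentile over peaks, and dashed lines mark a 2-fold change. The members' H3K4me1 median of -0.74 lies between -1.21 at peaks with neither mark and 0.30 at peaks with H3K4me3.

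Over all members H3K4me2 was lower by more than H3K4me1. With weakly enriched peaks of each mark left out separately, the median log2 ratio was -0.29 for H3K4me2 (5149 members) and -0.51 for H3K4me1 (10769 members). These are different sets of members, so the 2 values do not give an order of the marks. At the 6996 members with mean H3K4me1 of both lines above the member median, it was -0.61 for H3K4me2 and -0.29 for H3K4me1. These members were chosen on H3K4me1 alone, by a mean that holds its mutant value, so they give no order of the marks either. In wild-type cells the partners' median H3K4me2 fold enrichment was 3.58 (quartiles 3.15 to 4.10), and in mutant cells 1.67 (quartiles 0.895 to 2.81). The median log2 ratio was -1.14, and 7596 members (54.3%) had a decreased and 203 (1.45%) an increased partner. Among all H3K4me2 peaks 23.0% were decreased and 1.91% increased, and among distal ones 31.8% and 2.05%. The median was -0.13 over all H3K4me2 peaks, which places members at -1.01 relative to it, -0.46 over distal ones and -0.12 over distal ones with H3K4me3. The 3329 distal H3K4me2 peaks with neither an H3K4me1 nor an H3K4me3 peak started at a similar wild-type level, 3.42, but had a median log2 ratio of -0.31, and 27.2% of them were decreased.

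The shares of decreases were smaller after a filter on the mean of both lines and with a pseudocount. This mean falls when mutant enrichment falls, so the filter cannot show whether decreases lay at weakly enriched peaks. Without the lowest 25% of all H3K4me2 peaks by the mean of both lines, a filter that uses the compared values, 5149 members were left, 18.9% of them decreased against 11.8% of distal H3K4me2 peaks. The same filter on H3K4me1 left 10769 members, 25.2% of them decreased against 15.9% of distal H3K4me1 peaks. With a pseudocount of 1, 20.6% of members were decreased in H3K4me1 and 40.0% in H3K4me2, against 21.4% and 21.99% of distal peaks.

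At the same member the calls of both marks never went opposite ways. Of the 5369 members with decreased H3K4me1, 5066 (94.4%) had decreased H3K4me2, 303 had unchanged and 0 increased H3K4me2. Of the 366 members with increased H3K4me1, 112 (30.6%) had increased H3K4me2, 254 unchanged and 0 decreased. A further 2530 members had decreased H3K4me2 with H3K4me1 within 2-fold. Their median H3K4me1 log2 ratio was -0.72, below 0 but short of the 2-fold rule, and their median H3K4me2 log2 ratio was -1.39. H3K4me2 had the lower log2 ratio of both marks at 11485 members (82.1%), with a median difference of -0.48. This excess was not a feature of members alone, since it was -0.49 at distal peaks with H3K4me3, where H3K4me2 was lower at 86.2%. The 2 marks have different antibodies and different ranges of fold enrichment, and the tables do not fix a common scale.

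**Figure D2:**
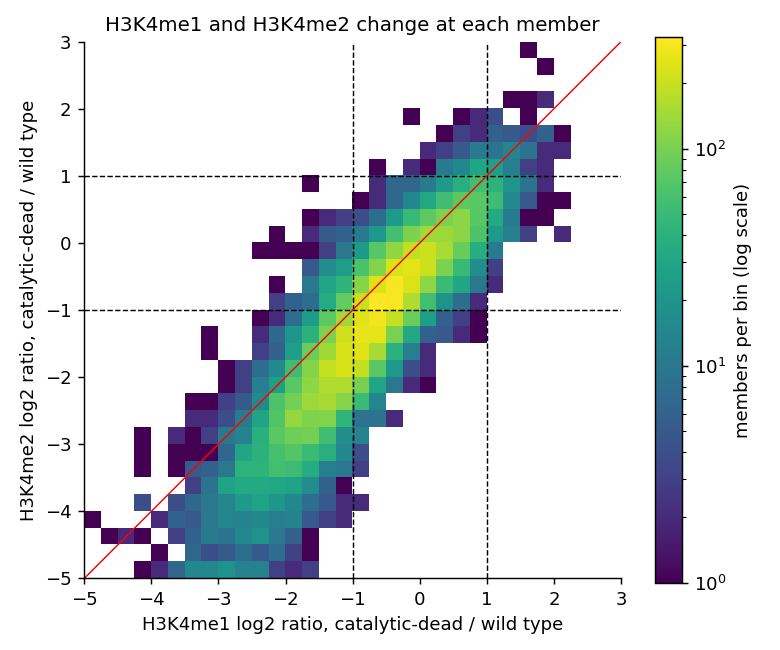
Members binned by their H3K4me1 log2 ratio (x axis) and the H3K4me2 log2 ratio of their partner (y axis), mutant over wild type, in steps of 0.25. Colour gives the number of members per bin on a log scale, dashed lines mark 2-fold changes, the red line marks equal ratios, and values outside the axes are drawn in the outermost bin. No member lies in the corners where one mark is decreased and the other increased, and 82.1% lie below the red line.

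Across members, Spearman's rho between the H3K4me1 and H3K4me2 log2 ratios was 0.88 (n = 13992), and it was 0.79 at distal peaks with H3K4me3 (n = 17160). In mutant cells the levels of both marks had a rho of 0.85 across members, but in wild-type cells only 0.27. Wild-type and mutant H3K4me1 had a rho of -0.33, so members high in one line tended to be low in the other, and for H3K4me2 it was 0.04. By the labels the input libraries belong to a line and not to a mark, and the peaks of both marks overlap in position. In which line the peaks were called was not established. H3K4me1 at members described below ran from 5.27 in wild-type and 0.468 in mutant cells to 0.952 and 4.35. The part of the input, the overlap or the choice of peaks by level in either line in these correlations was not tested.

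Wide members had larger decreases. In the narrowest quartile of distal peaks (up to 1023 bp) 28.0% of members were decreased in H3K4me1 and 7.26% increased. In the widest quartile (over 2436 bp) it was 47.0% and 0.535%, and the median log2 ratio went from -0.34 to -0.94. Distal peaks with neither mark did not show this trend, with 55.2% decreased in the narrowest and 56.3% in the widest quartile. Members and peaks with neither mark were therefore 27.2 points apart among narrow peaks and 9.26 points apart among wide ones. At distal peaks with H3K4me3 the median log2 ratio was also lower in the widest than in the narrowest quartile (0.16 against 0.50). Increases there were at 11.1% against 21.8% and decreases at 5.82% against 5.07%. Wild-type H3K4me1 also moved with width, with a rho of 0.39 across members. In each quartile of wild-type H3K4me1 the members had a smaller share of decreases than peaks with neither mark, 8.68% against 32.3% in the lowest and 56.9% against 77.5% in the highest. These quartiles use a value that enters the ratio.

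The extent of H3K4me2 within a member went with how much H3K4me1 was left. In the quartile of members least covered by H3K4me2 peaks (up to 41.5% of their width) the median H3K4me1 log2 ratio was -1.04 and 52.0% were decreased. In the most covered quartile (over 74.0%) it was -0.34 and 24.3%. The most covered members were also narrower, with a median width of 1139 bp against 2525 bp.

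At the edges of the rule the values did not follow the order of the classes. At the 105 members with at most 100 bp of H3K4me2 overlap the median H3K4me1 log2 ratio was -1.12 and 58.1% were decreased. At the 221 distal peaks that missed an H3K4me2 peak by at most 100 bp it was -0.9998 and 49.8%. At the 1328 members with an H3K4me3 peak within 1000 bp it was -0.66 and 35.8%, and at the 73 distal peaks with at most 100 bp of H3K4me3 overlap, a narrower window, -0.86 and 41.1%.

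Members far from any H3K4me3 peak had the most frequent decreases. The median distance from a member to the nearest H3K4me3 peak was 9.12 kb. Within 5 kb of one, 33.3% of 4862 members were decreased in H3K4me1, with a median log2 ratio of -0.63. At 100 kb or more, 69.0% of 784 members were decreased, with a median of -1.59, and 73.3% were decreased in H3K4me2, with a median of -2.45. The shares between were 34.95% at 5 to 20 kb, 41.5% at 20 to 50 kb and 48.0% at 50 to 100 kb. Chromosome 1, whose values needed no move, had the same order, from 32.9% of 249 members within 5 kb to 72.8% of 81 at 100 kb or more. Chromosome X, which needed no move either, had decreases at 21 of 48, 27 of 41, 15 of 25, 14 of 19 and 8 of 11 members from the nearest to the farthest bin, so its shares were not in strict order.

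The gradient was also present in the 3 kinds of place where it was computed. It ran from 41.5% to 75.3% at members on active enhancers, from 31.0% to 73.4% on poised enhancers and from 29.3% to 63.8% at members on no listed region. Distal peaks with neither mark had it too, from 49.9% to 85.2%, so it was not particular to members. Remote members were narrower (median 1386 bp at 100 kb or more, 1763 bp within 5 kb) and lay less often on an active enhancer (11.9% against 24.3%). Across all members the rho of distance with the H3K4me1 log2 ratio was -0.14.

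**Figure D3:**
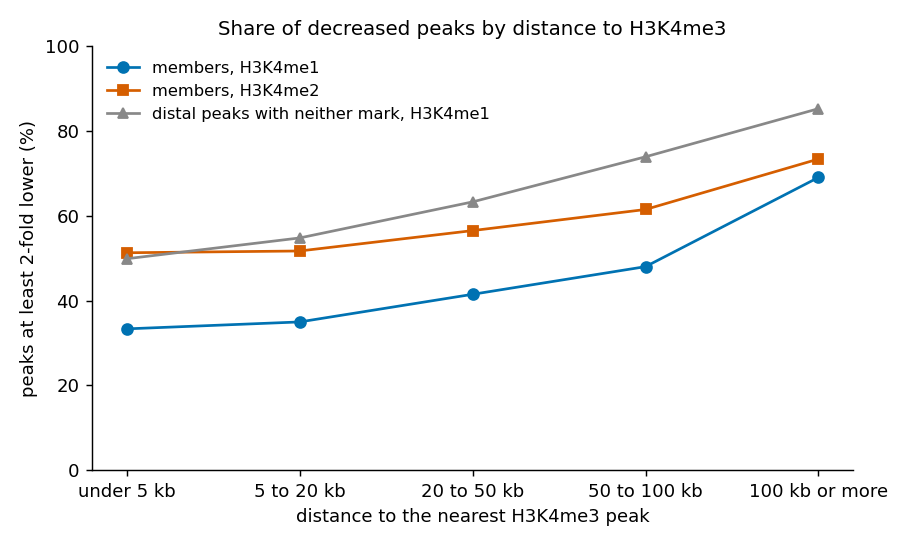
Share of peaks at least 2-fold lower in mutant cells (y axis, percent) by distance to the nearest H3K4me3 peak (x axis, bins of unequal width). Circles are H3K4me1 at members, squares H3K4me2 at members and triangles H3K4me1 at distal peaks with neither mark. All 3 lines end higher than they start, and for H3K4me1 at members the share goes from 33.3% to 69.0%.

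By chromosome, the share of members with decreased H3K4me1 ran from 34.3% to 44.0% over the 19 autosomes and was 59.0% on the X chromosome (85 of 144 members). For H3K4me2 it ran from 48.2% to 58.2% and was 72.9% on X. Distal peaks with neither mark also had a lower median on X (-1.69) than on any autosome (-1.33 to -1.08), while those with H3K4me3 had a higher one (0.64 against 0.19 to 0.51). Wild-type H3K4me1 at members on X had a median of 3.25, close to 3.20 elsewhere, while wild-type H3K4me2 was higher, at 4.13 against 3.57. Increased H3K4me1 was also more frequent on X, at 6.25% against 1.53% to 3.69% on the autosomes. Of the X members 81.9% lay on no 129/Ola region, against 29.6% of the others, they were narrower (median 1227 bp against 1732 bp), and their median distance to H3K4me3, 9.74 kb, was similar to 9.12 kb elsewhere.

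Neighbouring members were alike. Adjacent members less than 2 kb apart had a rho of 0.69 between their H3K4me1 log2 ratios (1615 pairs). It was 0.38 at 2 to 10 kb (1864 pairs), 0.16 at 10 to 50 kb and 0.10 at 50 to 200 kb. Next to a decreased member, the following one within 2 kb was decreased at 73.5%, and next to a member not decreased at 22.6%. For H3K4me2, counting only pairs with different partner peaks, rho was 0.52 under 2 kb and 0.30 at 2 to 10 kb. Members are therefore not independent of each other, and the counts above exceed the number of separate sites.

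The members were next set against the regions that the authors defined in 129/Ola cells. Of the members 69.8% overlapped a listed region, against 45.9% of distal peaks with neither mark and 83.5% of those with H3K4me3. Active enhancers lay under 22.2% of members, 12.0% of peaks with neither mark and 16.5% of those with H3K4me3, with 15.8% over all distal peaks. Poised enhancers lay under 22.6%, 19.3% and 15.3%, with 18.9% over all. The difference for active enhancers was about as large in the widest quartile of distal peaks and smaller in each of the other quartiles. In the narrowest quartile it was 10.8% of members against 7.23% of peaks with neither mark, and in the widest 35.02% against 24.9%. In the quartiles between, from narrow to wide, it was 14.6% against 11.3% and 23.1% against 16.3%. For poised enhancers the shares were 14.2% and 13.8% in the narrowest and 27.5% and 29.6% in the widest quartile.

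Assigning each member to the region with the longest overlap, 2974 lay on active enhancers, 2947 on poised ones, 2505 on H3K4me1-only regions outside both lists, 1320 on regions with both H3K4me1 and H3K4me3 in 129/Ola cells, and 27 on H3K4me3-only regions. The remaining 4219 lay on none. On active enhancers median H3K4me1 stood at 3.48 in wild-type and 1.87 in mutant cells, and 45.9% of members were decreased in H3K4me1 and 66.0% in H3K4me2. On poised enhancers it was 3.22 and 2.03, with 35.5% and 52.2% decreased. H3K4me1-only regions outside the lists were like active enhancers, at 47.3% and 68.5%. At regions where 129/Ola cells also had H3K4me3 the shares were 20.8% and 29.7%, and the median H3K4me1 log2 ratio was -0.35. Members on no listed region had 35.4% and 46.9% decreased, and 6.73% were increased in H3K4me1, against 0.303% on active and 0.611% on poised enhancers. They were narrower, with a median of 1211 bp against 2174 bp on active enhancers.

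**Figure D4:**
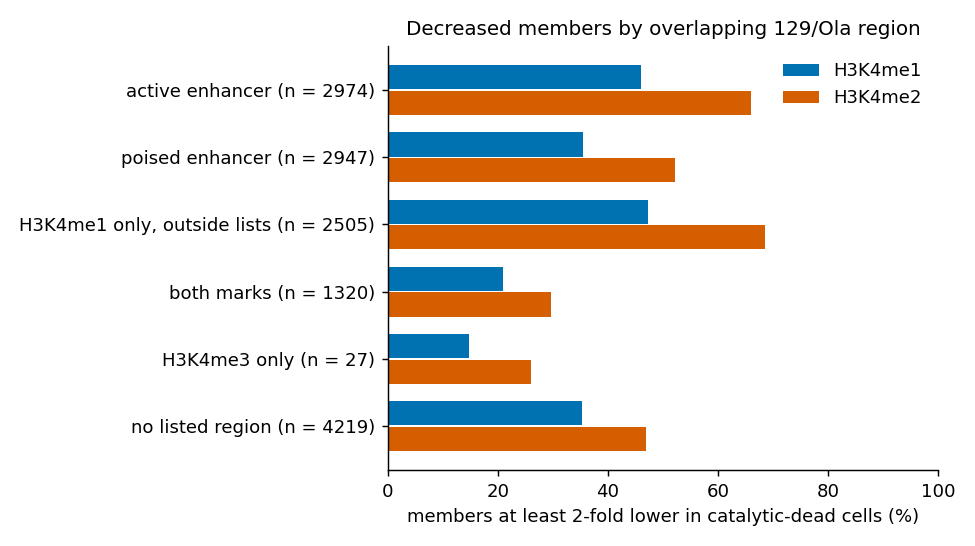
Share of members at least 2-fold lower in mutant cells (x axis, percent) for H3K4me1 (blue) and H3K4me2 (orange), by the 129/Ola region with the longest overlap; n is the number of members. Active enhancers (45.9% and 66.0%) and H3K4me1-only regions outside the lists (47.3% and 68.5%) have the longest bars, regions with both marks (20.8% and 29.7%) and the 27 members on H3K4me3-only regions the shortest.

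H3K27ac in 129/Ola cells was listed at 59.5% of the members on a region, against 50.6% of peaks with neither mark and 77.2% of those with H3K4me3. Where it was strong, with a log2 enrichment of 2 or more, 54.4% of 515 members were decreased in H3K4me1 and 75.9% in H3K4me2. At a log2 enrichment under 1 it was 28.4% and 43.8% of 1280 members. Members with no listed H3K27ac were at 40.7% and 58.8%, so the order was not monotonic. An H3K27ac log2 enrichment of 1 separates the active from the poised list, so this split overlaps with that of the lists.

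The chromatin proteins on these regions belong to several complexes, and the tables list a protein only from an enrichment of 1.5-fold upward. Among the 9773 members on a region, the mean number of the 17 proteins listed was 3.61 ± 3.56 (SD over members). At distal peaks with neither mark it was 3.71 and at those with H3K4me3 6.02. None of the proteins was listed at 23.0% of these members. The splicing factors SRSF2 and SRSF1 were listed at 43.0% and 28.2%, and PHF5A, a splicing-related PHD-finger protein, at 12.5%. The ISWI ATPase SNF2H, which slides nucleosomes, was listed at 28.7%, and its partners BAZ1A and WSTF at 14.9% and 7.82%. The BAF remodeller subunits BRG1, the ATPase, and BAF155 were at 12.5% and 15.0%. Mediator, which links enhancers to RNA polymerase II, was at 20.6% for MED1, 20.5% for SUR2 and 15.4% for MED12. SMC3, a core subunit of the cohesin ring, was at 26.4%, and the RuvBL ATPases RUVBL2 and RUVBL1 were at 20.8% and 17.2%. The histone deacetylase-associated protein SAP18 was at 26.6%, the FACT chaperone subunit SSRP1 at 25.3% and the PHD-finger protein PHRF1 at 25.5%.

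Taken over all regions together, members and peaks with neither mark had nearly the same set of proteins. The difference in share ran from -3.75 points for PHF5A (12.5% against 16.2%) to 2.87 points for BAF155 (15.0% against 12.1%), with 11 proteins less and 6 more frequent at members and a mean of -0.58 points. Over all regions, peaks with H3K4me3 had all 17 proteins more often than members, RUVBL2 at 49.9% and SAP18 at 52.4%. On active enhancers alone the order turned for 14 of 17 proteins, with SSRP1 at 26.0% of peaks with H3K4me3 and 36.1% of members, and only SMC3, RUVBL2 and BAF155 were more frequent at peaks with H3K4me3. Among peaks on active enhancers 15 of 17 proteins were less frequent at members than at peaks with neither mark, with a mean difference of -4.98 points. There BAZ1A was at 18.2% against 29.0%, PHRF1 at 36.4% against 46.3% and SSRP1 at 36.1% against 45.3%, while WSTF was 1.39 points more frequent at members. On poised enhancers 12 of 17 proteins were less and 5 more frequent at members, with a mean difference of -1.11 points. Nearly every member on the enhancer lists carried one of the proteins: 9 on active and 4 on poised enhancers carried none, against 2208 of the 2505 on H3K4me1-only regions outside the lists. Whether protein binding was used to draw the lists was not tested, so this split is not read as a result about members.

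**Figure D5:**
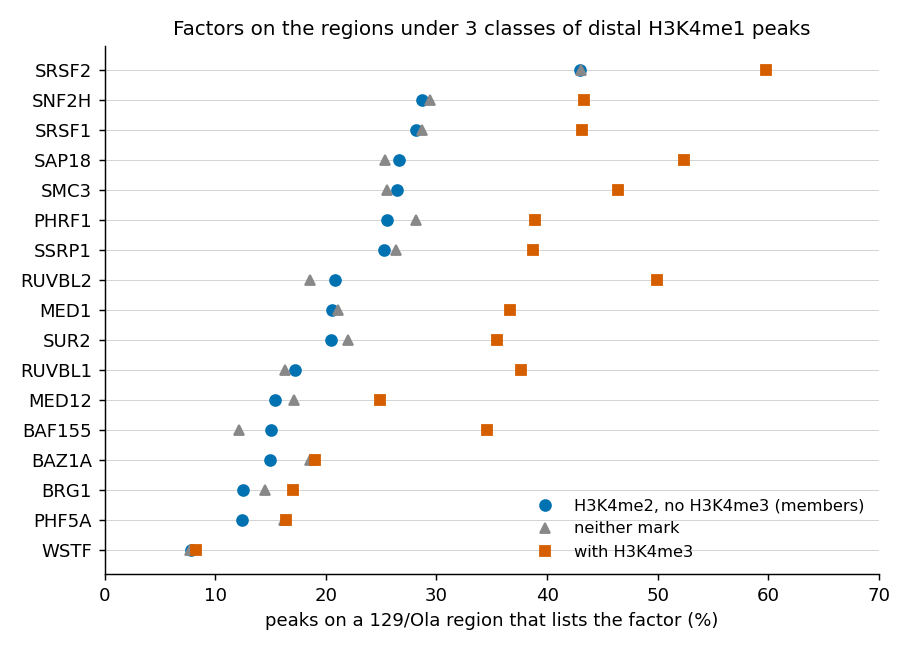
Share of peaks on a 129/Ola region that lists each of 17 chromatin proteins (x axis, percent), with proteins in the order of their share at members (y axis). Circles are members, triangles distal H3K4me1 peaks with neither mark and squares those with H3K4me3. Circles minus triangles run from -3.75 points (PHF5A) to 2.87 points (BAF155), and squares lie to the right of the circles for every protein.

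Members on regions with more proteins had fewer decreases. With no protein listed 47.1% of 2245 members were decreased in H3K4me1 and 68.7% in H3K4me2, and with 9 or more listed 26.95% and 37.6% of 1169. Of the 2245 members with none, 2208 lay on H3K4me1-only regions outside the lists, and regions with both marks in 129/Ola cells had the most proteins (median 9), so this order overlaps with that of the regions. Wild-type H3K4me1 had a median of 3.33 with no protein and 3.20 with 9 or more. Members with no protein were also wider, with a median of 2294 bp against 1729 bp with 9 or more. For each of the 17 proteins the median H3K4me1 and H3K4me2 log2 ratios were closer to 0 at members with the protein than without it, by 0.00 (WSTF) to 0.32 (SMC3) for H3K4me1 and by 0.03 (WSTF) to 0.52 (BAZ1A) for H3K4me2. The proteins share regions, so these are not 17 separate results. For H3K4me1 this held for 12 of 17 proteins within active enhancers and for 13 within poised ones, and H3K4me2 was not split in this way.

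SMC3 had the largest such difference in H3K4me1. Members with SMC3 had a median H3K4me1 log2 ratio of -0.55 and 28.3% decreased, and members on a region without it -0.87 and 43.8%. The difference in median was 0.26 within active and 0.27 within poised enhancers. Within 5 kb of an H3K4me3 peak 25.4% of members with SMC3 and 38.4% of those without were decreased, and at 100 kb or more 62.5% and 76.3%. BAF155, in contrast, had a difference of -0.16 within active enhancers, with medians of -1.05 with and -0.90 without it.

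Individual members show the range. Those with extreme ratios were taken among the 6996 members whose mean H3K4me1 enrichment of both lines was above the member median. The lowest ratio was at chromosome 7, 110547071 to 110547739, a 668 bp peak on a poised enhancer listed with PHF5A, SMC3 and SRSF1. H3K4me1 there was enriched 5.27-fold in wild-type and 0.468-fold in mutant cells, and its H3K4me2 partner 4.41-fold and 0.163-fold. It lay 568 kb from the nearest H3K4me3 peak. The next was on an active enhancer at chromosome 14, 66385642 to 66386661, with H3K4me1 at 4.76 and 0.653 and H3K4me2 at 3.76 and 0.193. At chromosome 7, 120182290 to 120184013, also an active enhancer, H3K4me2 was 4.87 in wild-type and 0.165 in mutant cells. At chromosome 8, 122151132 to 122152865, a poised enhancer 3.63 kb from H3K4me3, it was 3.13 and 0.0255. In these 4 members H3K4me2 had a lower log2 ratio (-4.28 to -6.94) than H3K4me1 (-2.73 to -3.49).

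The highest ratio was at chromosome 11, 53403795 to 53404450, where H3K4me1 was 0.952 in wild-type and 4.35 in mutant cells while H3K4me2 was 4.08 and 4.70. This member lay on no 129/Ola region. At chromosome 14, 55432686 to 55433782, H3K4me1 was 1.36 and 5.77 and H3K4me2 2.40 and 5.92. Its region carries both marks in 129/Ola cells and lists 14 of the 17 proteins. At chromosome 14, 105941244 to 105942576, on no listed region, both marks were higher, H3K4me1 at 1.08 and 4.43 and H3K4me2 at 1.82 and 5.75. At chromosome 5, 109203499 to 109204536, with 13 proteins, they were at 1.61 and 5.78, and 1.85 and 5.07. The 4 members had low wild-type H3K4me1, below the member median of 3.20. Wild-type H3K4me1 divides the ratio by which they were chosen, so the choice itself favours low values.

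The 4 widest members were within 2-fold for both marks. They spanned 17989 to 19096 bp and had H3K4me1 log2 ratios from -0.20 to 0.05. The widest lay at chromosome 1, 36969556 to 36988652, held 4 H3K4me2 peaks and had H3K4me1 enriched 3.48-fold in wild-type and 3.05-fold in mutant cells. It overlapped most with an H3K4me1-only region that lists none of the proteins. The second widest, at chromosome 13, 35858314 to 35876467, had 3.28 and 2.85.

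The strongest H3K4me2 partners lay at the border of H3K4me3. The 4 members with the highest wild-type H3K4me2, from 10.99 to 13.3, all had an H3K4me3 peak within 0.100 to 0.169 kb, and their H3K4me2 peaks, 3462 to 6121 bp wide, extended beyond the member. The first, at chromosome 7, 50701039 to 50703715, had H3K4me2 at 13.3 and 12.6 and H3K4me1 at 2.62 and 3.23. H3K4me2 was within 2-fold at all 4. At the X chromosome member, 50100267 to 50101589, H3K4me1 was 3.21 in wild-type and 0.633 in mutant cells while H3K4me2 of the adjoining peak was 11.5 and 10.7.

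None of the members lay on a region with all 17 proteins, and 10 lay on one with 16. Of these 10, 3 were decreased and 0 increased in H3K4me1, and the median log2 ratio was -0.76. The one with the strongest H3K27ac (log2 enrichment 2.22) was at chromosome 8, 124846887 to 124850866, where BRG1 was the protein not listed, and had H3K4me1 at 3.18 in wild-type and 2.67 in mutant cells. At chromosome 6, 72757597 to 72761461, also without BRG1, H3K4me1 was 3.01 and 0.798 and H3K4me2 3.08 and 0.415. All of the 4 members of this kind with the strongest H3K27ac were on regions with both H3K4me1 and H3K4me3 in 129/Ola cells, although R1 cells had no H3K4me3 peak there.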

How the data were processed

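The authors deposited 3 peak tables from R1 cells with positions, a distal or proximal group and a fold enrichment (a ratio, FE per the file headers) for each line, and 3 region tables from 129/Ola cells with 1 value per region and protein, taken as log2 enrichment because their lowest value is the log2 of 1.5, since the deposited tables name no unit. Per the submitters' processing notes the build was mm9, and the tools named for R1 libraries were MACS2 2.1.0.20150731, BWA 0.7.13-r1126, deepTools 2.5.1 and 2.5.3, and Picard 2.11.0. Which tool did what, and how libraries were combined, is not given in the sources used here. Positions are printed as the files give them.

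Values run through the chromosomes in number order and rows in text order, so each value block was returned to its chromosome. This step, the class rule and the overlap code were tested on simulated data. Overlap needed 1 bp, and bedtools 2.31.1 gave the same 13992 members. Log2 ratios had no pseudocount, and 0 members had an H3K4me2 value of 0. Decreased and increased mean a ratio of at most 0.5 or at least 2, which matched the authors' class of change with 0 exceptions. Of 31 names in the region tables, 11 matched no 129/Ola library and were not used.

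Named members were, by rule, the 4 lowest and 4 highest H3K4me1 ratios, the 4 highest in wild-type H3K4me2, the 4 widest and the 4 with most proteins. The class and the lists were chosen with earlier results of these data known. No mm9 genome or annotation was used, so no sequence or gene is given. Python 3.11.15, pandas 2.3.3 and scipy 1.17.1 were used.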

Additional observations from a re-analysis of the deposited data

How the results depend on the processing

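No paired analysis was possible because the tables give 1 value per mark and line, and for the same reason no library could be left out. The 19 medians recomputed under alternatives were all below 0, but not all of them could have changed sign. A pseudocount of 1 cannot change the sign of a log2 ratio. In the deposited row order most values came from other peaks, and the median of all peaks was itself below 0. For the median H3K4me1 log2 ratio, the shares of members with decreased and increased H3K4me1, the median H3K4me2 log2 ratio and the share with decreased H3K4me2, in this order, the values were as follows. In the deposited row order, which pairs most positions with values of other peaks, they were -0.29, 29.6%, 13.7%, -0.18 and 25.5%. Centring on the median of all peaks, which was -0.21 for H3K4me1 and -0.13 for H3K4me2, gave -0.53, 30.5%, 4.88%, -1.01 and 50.4%. Without the lowest 25% of peaks they were -0.51, 25.2%, 2.94%, -0.29 and 18.9%, and with a pseudocount of 1 -0.53, 20.6%, 0.593%, -0.81 and 40.0%. On chromosomes 1, X and Y the first was -0.90, decreased H3K4me1 46.1%, the H3K4me2 median -1.34 and decreased H3K4me2 59.6%. Without members that share an H3K4me2 partner, chosen after seeing the data, these 4 were -0.70, 36.4%, -1.07 and 52.2%. At 1.5-fold the 3 shares were 57.0%, 7.90% and 68.5%. With an H3K4me2 overlap of 50% of the shorter peak 13181 members had an H3K4me1 median of -0.71 and 37.0% decreased. With a region overlap of 50% of the shorter, active and poised enhancers lay under 21.3% and 21.4% of members. The other 26 of 61 recomputed values stayed within the counting interval (95%; for the number of members, 1.5-fold) of the reported value. This interval treats members as independent, which neighbouring members were not. It holds no error between libraries or lines, so it serves only as a rule of size. The cause of the moves was not tested. Depth is unknown, so the error of a single peak's ratio, largest where enrichment is low, cannot be given.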
